A study of Mus musculus with 20 samples.

Results

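NF-κB transcripts were followed in cultured mouse dorsal root ganglion (DRG) neurons that had been made to fire action potentials in 2 temporal patterns. The genes were 5 subunits (Rela, Relb, Rel, Nfkb1 and Nfkb2) and 5 inhibitors or feedback genes (Nfkbia, Nfkbib, Nfkbiz, Tnfaip3 and Bcl3) of the pathway, taken as a list of names with no threshold on measured values. They are 10 of the 30222 gene names on the array, and 15 probes carry them: 3 each for Relb and Nfkbib, 2 for Nfkb1 and 1 for each of the others. Of the 10, 5 (Rela, Relb, Nfkbia, Nfkbib and Bcl3) had a usable spot in all 20 samples. Nfkb1, Nfkb2 and Tnfaip3 were usable in all 4 samples of at least 1 condition, and Rel and Nfkbiz in neither sense, so the last pair is given as levels and lower bounds without a test.

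The neurons came from NIH Swiss embryos at E13.5 and were grown in chambers in which axons cross under a barrier, so that current across the barrier excites them. All cultures, controls included, had been given a drug against dividing non-neuronal cells, and were moved to serum-free medium the night before. Stimulated neurons fired 18 action potentials every 1 min (18/1) or 90 every 5 min (90/5), for 2 hr or 5 hr, which gives the same mean rate in different bursts. Unstimulated neurons were kept alongside but not connected. Each of the 5 conditions has 4 samples on 2 arrays, and both colours of an array, Cy3 and Cy5, hold the same condition. According to the methods each condition was made from 5 pooled cultures. The methods call the samples biological replicates and do not say how the pooled cultures were divided among the 4 samples of a condition. The p-values measure the spread between these samples. The labels name the cells DRG neurons, whereas the growth protocol gives spinal cords as the tissue they were dissociated from.

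NF-κB is a family of dimeric transcription factors. In resting cells the dimers are held in the cytoplasm by IκB proteins. Signals that activate the IκB kinases, such as TNF, interleukin 1 or calcium entry in neurons, mark IκB for destruction, and the freed dimer enters the nucleus. Many of its own regulators are among its targets, above all Nfkbia, which encodes IκBα and closes a negative feedback loop. In sensory neurons the pathway is known for its part in survival, neurite growth and pain.

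The DNA motif through which the dimers act, the κB consensus, was looked for in the RefSeq promoters of the genes (GRCm38.p6, from 250 bases before to 50 after the gene start, both strands). Promoter entries were found for 7 of the 10 genes, 10 entries in all, and 5 genes (Rel, Nfkb2, Nfkbia, Tnfaip3 and Bcl3) hold at least 1 match of 10 letters. The 2 with an entry and no match were Rela and Nfkbib. Over all promoters of the same length, 2779 of 32851 (8.46%) hold a match. The bases before the gene start are printed for Nfkbia, Nfkb2 and Nfkbib as examples, not as a ranking of the genes. Capitals mark matches to the κB consensus on either strand, and each sequence reads 5′ to 3′ on the gene's own strand.
Nfkbia, chr12:55492648-55492897, minus strand: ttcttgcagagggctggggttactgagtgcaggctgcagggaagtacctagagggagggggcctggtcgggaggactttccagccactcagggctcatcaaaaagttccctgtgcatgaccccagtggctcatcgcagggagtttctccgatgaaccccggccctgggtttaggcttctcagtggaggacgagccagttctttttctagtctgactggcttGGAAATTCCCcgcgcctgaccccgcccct
Nfkb2, first of 3 entries, chr19:46304487-46304736, plus strand: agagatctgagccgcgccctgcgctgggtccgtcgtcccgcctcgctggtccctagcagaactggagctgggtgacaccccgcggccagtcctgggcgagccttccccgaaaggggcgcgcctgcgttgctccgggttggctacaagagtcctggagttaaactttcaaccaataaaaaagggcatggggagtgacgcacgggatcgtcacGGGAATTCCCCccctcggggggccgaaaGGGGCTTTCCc
Nfkbib, chr7:28766645-28766894, minus strand: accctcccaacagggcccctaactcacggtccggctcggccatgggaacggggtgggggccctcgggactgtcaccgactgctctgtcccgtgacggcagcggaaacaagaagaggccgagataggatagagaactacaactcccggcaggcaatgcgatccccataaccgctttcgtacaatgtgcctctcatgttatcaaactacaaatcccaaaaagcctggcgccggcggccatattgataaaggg
The match of Nfkbia begins 29 bases before the gene start. In Nfkb2, overlapping matches begin 39 and 38 bases before it and another begins 11 bases before it. The match of Bcl3, GGGAAGTCCC, lies in the first transcribed bases, just after the gene start. A match is a description of the letters, not of binding.

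The arrays lay on 3 slides. Arrays 1 to 4 shared slide 1, the first pair with unstimulated neurons and the other with 18/1 2 hr. Arrays 5 and 6 with 18/1 5 hr and arrays 7 and 8 with 90/5 2 hr shared slide 2, and arrays 9 and 10 with 90/5 5 hr were alone on slide 3. Only 18/1 2 hr against unstimulated and 90/5 2 hr against 18/1 5 hr share a slide. In the remaining comparisons slide and condition cannot be told apart. On arrays 5, 6 and 8 the scanner software marked 3138 to 14642 spots per colour as non-uniform, against 6 to 139 on the other arrays, array 7 included. The stimulation itself was seen in the activity-dependent transcription factor Npas4, whose mean log2 signal was 7.40 in unstimulated neurons and 12.03 to 13.21 in the 4 stimulated conditions (adjusted p from 0.0018 to 2.79e-05 against unstimulated, limma). Nr4a1, another gene of that class, differed from unstimulated by 4.44 to 5.51 on the log2 scale, with an adjusted p of 5.18e-05 or less in each. Egr1, the third activity gene checked, differed by 2.71, 1.00, 2.71 and 3.18 in 18/1 2 hr, 18/1 5 hr, 90/5 2 hr and 90/5 5 hr, with adjusted p of 0.447, 0.17, 0.00693 and 0.0322, and with the filter within a condition the last was 0.0735. All 13 sensory neuron markers were well above background in every sample. So were all 7 fibroblast markers, and in each condition 6 or 7 of 9 Schwann and satellite glia markers and 2 to 4 of 6 markers of spinal cord astrocytes and motor neurons were so in all 4 samples.

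Some markers of other cells had other levels on slide 2 than in unstimulated neurons. Of the 5 fibroblast markers tested, 1 rose and 0 fell in 18/1 5 hr (44.4% of all genes called), with a median of 0.97 where that of all genes was -0.23, and 3 were lower in 90/5 than in 18/1 at 5 hr (45.4% of all genes called), with a median of -1.17. With the filter within a condition all 7 were tested, 1 rose and 1 was lower in 90/5 than in 18/1 (36.8% and 38.2% of all genes called), with medians of 0.50 and -0.73. Signals were also summed over a list before log2 was taken. Over the 7 this sum was 16.55 to 16.94 in unstimulated neurons and 16.90 to 17.33 in 18/1 5 hr. In unstimulated neurons it was mostly Thy1, which neurons also express. Without Thy1 it was 14.08 to 15.45 in unstimulated neurons and 16.03 to 16.23 in 18/1 5 hr. Thy1 itself was 15.69 to 16.44 in 18/1 5 hr. The endothelial sum was 11.29 to 11.80 in unstimulated neurons, 9.77 to 10.07 in 18/1 5 hr, 10.22 to 11.07 in 90/5 2 hr and 11.92 to 12.59 in 90/5 5 hr, and without Kdr, its brightest gene on average, it was 9.19 to 9.54, 8.71 to 9.02, 9.14 to 9.22 and 9.21 to 9.47. The Schwann and satellite glia sum overlapped between unstimulated neurons and 18/1 5 hr, at 16.26 to 16.43 and 15.64 to 16.71, and without S100b it was 13.38 to 13.95 and 14.18 to 14.57. The sum of the spinal cord markers was 9.89 to 10.14 in unstimulated neurons, 10.17 to 11.80 in 18/1 5 hr and 9.93 to 10.52 in 90/5 2 hr. Without Aqp4 it was 9.638 to 9.895 in unstimulated neurons and 9.28 to 10.61 in 18/1 5 hr, which overlap. In 90/5 2 hr it was then 9.356 to 9.636, just below the unstimulated range. Of 12 macrophage and leukocyte markers, 10 were well above background in all unstimulated samples, 7 in all of 18/1 5 hr and 5 in all of 90/5 2 hr, and their sums overlapped, at 14.45 to 14.97, 13.50 to 14.92 and 13.50 to 14.79. Of the 3 of them tested, 0 rose and 1 fell in 18/1 5 hr (44.4% of all genes called), and with the filter within a condition 1 rose and 2 fell of 11 (36.8%). The part of these cells in the results was not tested.

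The genes did not move as a block. Nfkbia, the gene of IκBα, was higher than in unstimulated neurons in all 4 samples of 18/1 2 hr, 90/5 2 hr and 90/5 5 hr, by 2.52-, 2.12- and 1.78-fold. Nfkbib, the gene of IκBβ, was 3.44-fold lower after 18/1 for 5 hr, and Bcl3 was 2.30-fold higher there and 2.40-fold higher after 90/5 for 2 hr. Relb was 1.74-fold higher in 90/5 5 hr, while Rela, the main activating subunit, differed from unstimulated by at most 1.28-fold in any condition. Of these differences, those of Nfkbib and Bcl3 and that of Nfkbia in 90/5 2 hr passed the test. All levels and differences are log2 values of normalized signal, and a difference is called where its limma p, adjusted by the Benjamini-Hochberg method over all genes tested, is under 0.05.

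Over the 5 genes measured in all samples, 0 of 5 were called after 18/1 for 2 hr against unstimulated, where 0.0193% of all genes tested were called. In 18/1 5 hr, 2 of 5 were called (Bcl3 higher, Nfkbib lower) against 44.4% of all genes. In 90/5 2 hr the count was 2 of 5 (Nfkbia and Bcl3, both higher) against 6.97% of all genes. The count in 90/5 5 hr was 0 of 5 against 0.0676% of all genes. The counts at 5 hr of 18/1 are thus close to the background of that comparison. At an unadjusted limma p under 0.05, 1 of 5 passed in the first comparison (0.888% of all genes) and 2 of 5 in the last (3.69% of all genes).

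Between conditions, 90/5 against 18/1 gave 0 of 5 at 2 hr (4.96% of all genes) and 2 of 5 at 5 hr (45.4% of all genes), Nfkbib and Relb, both higher after 90/5. The later against the earlier time gave 3 of 5 within 18/1 (44.0% of all genes) and 0 of 5 within 90/5 (8.96% of all genes). Within slide 2, 90/5 2 hr against 18/1 5 hr gave 1 of 5, Nfkbib, against 12.9% of all genes. The unadjusted counts were 2 of 5 for the patterns at 2 hr (19.6% of all genes) and 3 of 5 for the times within 90/5 (23.2% of all genes). The median difference of the 5 genes lay between -0.25 and 0.44 over the 9 comparisons, and that of all genes between -0.23 and 0.23.

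The direction of calls over all genes depended on the scaling wherever the 18/1 5 hr samples entered. Of the genes called in 18/1 5 hr against unstimulated, 33.7% were higher, and 8.73% with arrays centred on their medians alone. The same shares were 65.2% and 92.6% for the patterns at 5 hr, 34.8% and 9.20% for 18/1 5 hr against 2 hr, and 78.6% and 99.6% for 90/5 2 hr against 18/1 5 hr. Median centring moved the median of all genes in 18/1 5 hr against unstimulated from -0.23 to -0.81. In the patterns at 5 hr it moved from 0.23 to 0.93, in 18/1 5 hr against 2 hr from -0.23 to -0.80 and in 90/5 2 hr against 18/1 5 hr from 0.17 to 0.83.

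**Figure D1:**
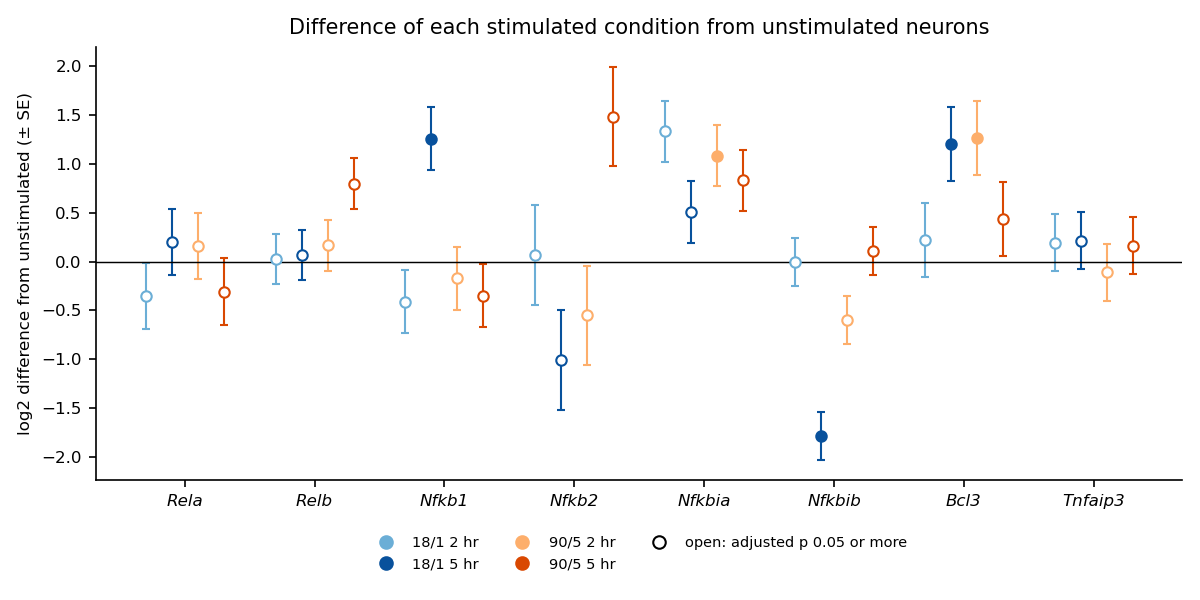
Log2 difference from unstimulated neurons (vertical axis, ± SE) for 8 genes in the 4 stimulated conditions, with filled points for an adjusted p under 0.05 and open points otherwise. Nfkb1, Nfkb2 and Tnfaip3 come from the fit with the filter within a condition. Nfkbia lies above 0 in all 4 conditions, and Nfkbib at 18/1 5 hr is the lowest point at -1.78.

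Nfkbia lay above the unstimulated range in 3 of the 4 stimulated conditions. In unstimulated neurons its log2 signal was 10.09, 10.66, 10.64 and 11.16. At 2 hr of 18/1 it was 11.96, 12.13, 11.83 and 11.96, and after 90/5 for 2 hr it was 11.97 and 11.70 on array 7 and 11.57 and 11.64 on array 8. All 8 of these samples lay above the highest unstimulated sample. The 90/5 5 hr values were 11.17, 11.23, 11.55 and 11.93, again all above unstimulated, the lowest by a small margin. Those of 18/1 5 hr were 11.40, 10.74, 11.39 and 11.04, which overlap the unstimulated range.

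The difference from unstimulated was 1.33 ± 0.31 (SE, n = 4 against 4) after 18/1 for 2 hr, with an adjusted p of 0.708 and an unadjusted limma p of 0.000342. This comparison lies within slide 1. In a fit to these 2 conditions alone the same difference had an SE of 0.16 and an adjusted p of 0.0132, and over all alternatives the adjusted p ran from 0.000353 to 1. With the replicate number as a block, which pairs these conditions, the SE was 0.15 and the adjusted p 0.00275 in a fit to the pair of conditions alone, an alternative chosen after the data were seen, and Nfkbia was then 1 of 5 called where 2.00% of all genes were. In 90/5 2 hr the difference was 1.09 ± 0.31 with an adjusted p of 0.0387, which ran from 0.00174 to 0.419 over all alternatives. That call was lost without array 1, 2, 3, 4, 8, 9 or 10 and without unstimulated replicate 1 or 3, any 18/1 2 hr sample, the Cy3 sample of array 7 or 8, the Cy5 sample of array 8 or 90/5 5 hr replicate 4, at 0.82 to 1.35. It was also lost with the filter within a condition (adjusted p = 0.0815) and without a filter. The same held with saturated probes left out, on array means and in the methods' t-test after Benjamini-Hochberg. For 90/5 5 hr the difference was 0.83 ± 0.31 with an adjusted p of 1, which ran from 0.0103 to 1. For 18/1 5 hr it was 0.51 ± 0.31 with an adjusted p of 0.197, and Nfkbia fell by 0.83 between 2 hr and 5 hr of 18/1 (adjusted p = 0.0377), a call lost without array 2, 3, 4, 5 or 10 (adjusted p from 0.0509 to 0.202) and without 18/1 2 hr replicate 1, 2 or 4, the Cy5 sample of array 5 or 6, or 90/5 5 hr replicate 4. In bulk RNA a change in the share of cells that hold a transcript and a change in RNA per cell cannot be told apart.

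With arrays 5, 6 and 8 left out together, an alternative chosen after the data were seen, Nfkbia was called in all 3 conditions that remained. Its difference from unstimulated was then 1.33 ± 0.20 after 18/1 for 2 hr (adjusted p = 0.0219), 1.20 ± 0.24 after 90/5 for 2 hr (adjusted p = 0.00628, from the 2 samples of array 7 alone, whose array is assumed to vary like the others) and 0.83 ± 0.20 after 90/5 for 5 hr (adjusted p = 0.0403). In that setting 0.0579%, 11.2% and 3.01% of all genes were called in the same comparisons. Between the patterns, 90/5 minus 18/1, Nfkbia differed by -0.25 ± 0.31 at 2 hr (adjusted p = 0.706) and 0.33 ± 0.31 at 5 hr (adjusted p = 0.414), and neither was called. Over the 20 samples the 3 genes whose signal was most like that of Nfkbia were 2010111I01Rik (Pearson r = 0.77), Egr1 (0.75), an immediate early transcription factor, and Btg2 (0.73), another early gene. These are correlations within 1 set of arrays that share slides and conditions, given as a description.

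**Figure D2:**
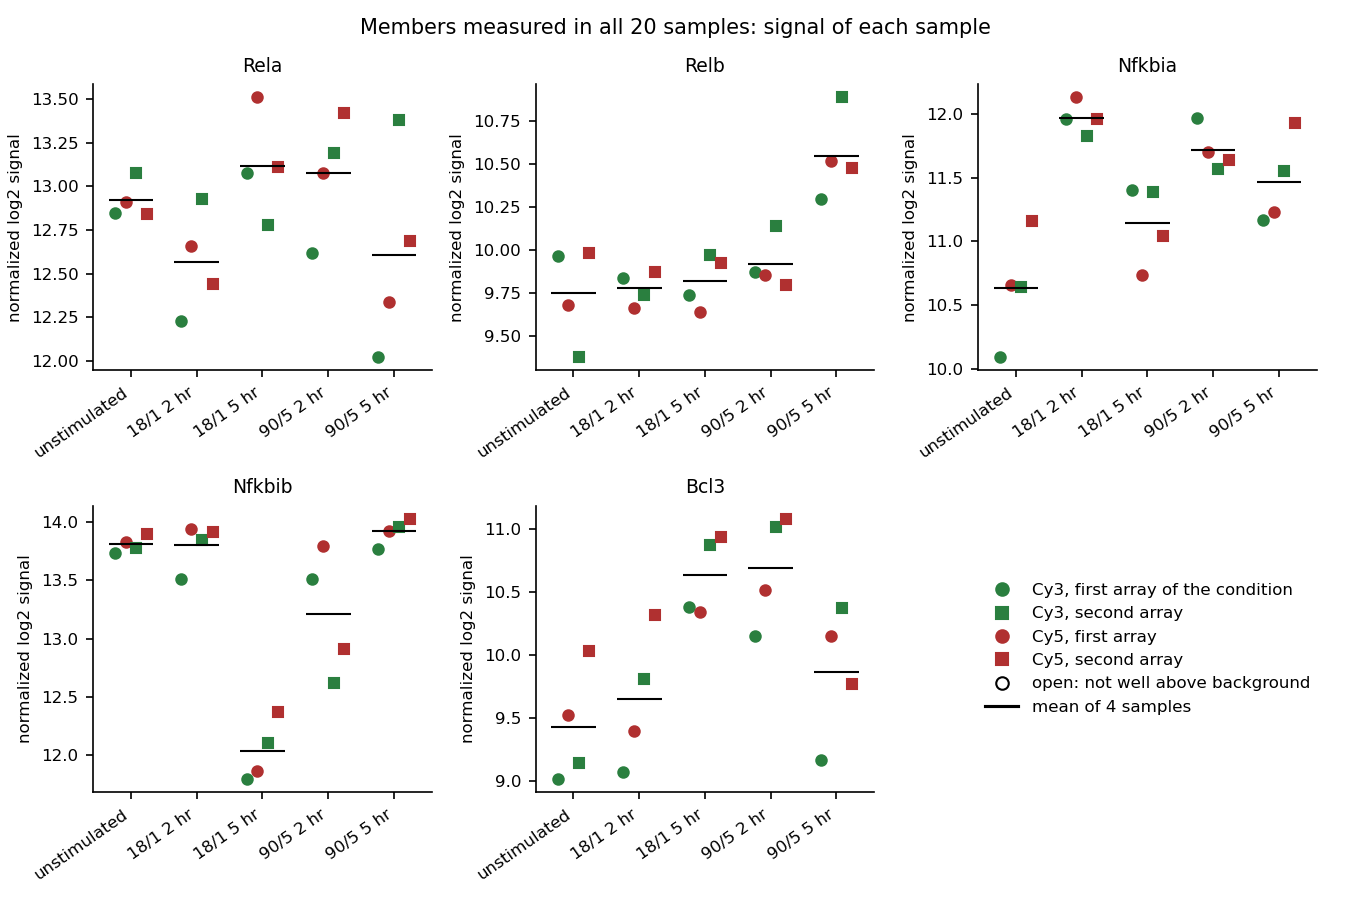
Normalized log2 signal (vertical axis) of each of the 20 samples by condition for the 5 genes with a usable spot in every sample, with colour for the dye, circles and squares for the first and second array of a condition and a line at the mean of 4. The stimulated Nfkbia samples of 18/1 2 hr, 90/5 2 hr and 90/5 5 hr lie above all unstimulated samples, and the Nfkbib samples of 18/1 5 hr lie between 11.79 and 12.37, below all others.

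Nfkbib encodes IκBβ, another inhibitor that holds NF-κB dimers in the cytoplasm. Its brightest probe, A_55_P1989733 (mm9, chr7:29544160-29544219), read 13.74, 13.83, 13.78 and 13.90 in unstimulated neurons and 13.51, 13.94, 13.85 and 13.92 after 18/1 for 2 hr. In 90/5 5 hr the same probe read 13.77, 13.93, 13.96 and 14.03. These 12 samples lay within about the same narrow band. Its 18/1 5 hr readings were 11.79 and 11.86 on array 5 and 12.10 and 12.37 on array 6, below every other sample. The difference from unstimulated was -1.78 ± 0.25 (adjusted p = 1.71e-05), from 18/1 2 hr -1.78 ± 0.25 (adjusted p = 1.85e-05), and between the patterns at 5 hr 1.89 ± 0.25, higher after 90/5 (adjusted p = 7.23e-06). These 3 calls held under every alternative in which they could be computed.

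The arrays of 1 condition did not give Nfkbib the same level, though. In 90/5 2 hr samples the probe read 13.51 and 13.80 on array 7, and 12.62 and 12.91 on array 8. Against the unstimulated mean the difference was -0.16 on array 7, -1.05 on array 8, and -1.78 over arrays 5 and 6. Arrays 5, 6 and 8 are those with 3138 or more non-uniform spots per colour, and array 7 lies on the same slide and has few. The part of spot quality in the Nfkbib result was not tested. Neither probe spot of Nfkbib used here was itself marked as non-uniform on any array. Before normalization the ratio of this spot to its background was 91.3 to 284 for 18/1 5 hr and 179 to 246 for unstimulated neurons. These ratios are not on the same scale, since the median spot was 5.55 to 10.4 times its background in 18/1 5 hr and 2.27 to 2.59 times in unstimulated neurons.

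The second bright probe of Nfkbib, A_66_P120882 (chr7:29545252-29546647), gave larger differences of the same sign. It read 12.60, 13.02, 12.59 and 12.89 in unstimulated neurons and 8.87, 8.64, 10.04 and 10.28 after 18/1 for 5 hr. In the fit of every probe the difference was -3.32 ± 0.36 (adjusted p = 1.55e-06), where 44.9% of all probes were called. Between the patterns at 5 hr it was 3.38 ± 0.36 (adjusted p = 8.06e-07), where 45.9% were called. The 90/5 2 hr samples of this probe differed from unstimulated by -1.19 ± 0.36 (adjusted p = 0.0492, where 6.00% of all probes were called), with -0.61 on array 7 and -1.77 on array 8. From 2 hr to 5 hr of 90/5 it rose by 1.25 ± 0.36 (adjusted p = 0.0316, where 8.06% of all probes were called), while the chosen probe differed by 0.71 ± 0.25 (adjusted p = 0.0751). The third probe, A_55_P2051666 (chr7:29543270-29543329), was dim. It read 7.77 and 7.90 on array 5, both spots marked non-uniform, and 6.96 and 6.88 on array 6, against 7.13 to 7.53 in unstimulated neurons, a difference of 0.02 between the means. The array 6 readings lie below all 4 unstimulated samples and the array 5 readings above them. With the chosen probe it correlated at r = 0.05 over the 20 samples and at 0.79 without array 5. Within slide 2 the chosen probe was higher in 90/5 2 hr than in 18/1 5 hr by 1.18 ± 0.25 (adjusted p = 0.00672), and fitted to those 2 conditions alone the same difference had an adjusted p of 0.317. That p was 0.123 without array 7, and over all alternatives it ran from 6.81e-05 to 0.317.

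Bcl3 encodes an IκB-like protein that acts in the nucleus, where it binds NF-κB homodimers and can activate or repress. Its log2 signal was 9.02, 9.52, 9.15 and 10.03 in unstimulated neurons and 9.07, 9.40, 9.81 and 10.32 after 18/1 for 2 hr. At 5 hr of 18/1 it was 10.38, 10.34, 10.87 and 10.94, and after 90/5 for 2 hr it was 10.15, 10.52, 11.02 and 11.08. All 8 samples of slide 2 thus lay above the highest unstimulated sample. At 5 hr of 90/5 it was 9.17, 10.15, 10.37 and 9.77, which overlap unstimulated. Bcl3 rose by 1.20 ± 0.38 after 18/1 for 5 hr (adjusted p = 0.0142) and by 1.26 ± 0.38 after 90/5 for 2 hr (adjusted p = 0.048).

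Within 18/1, Bcl3 was higher at 5 hr than at 2 hr by 0.98 ± 0.38 (adjusted p = 0.0414), and this call was lost without array 1, 2, 3 or 6 and without 18/1 2 hr replicate 1, 2 or 3, the Cy3 sample of array 5 or 6 or 90/5 5 hr replicate 4, at 0.57 to 0.99. Under median centring it was 0.20 ± 0.37 (adjusted p = 0.666), and the call was also lost with the filter within a condition, without a filter, with saturated probes left out, on array means and in the methods' t-test after Benjamini-Hochberg (adjusted p from 0.0503 to 0.159). The patterns at 2 hr differed by 1.04 ± 0.38 (adjusted p = 0.122) and those at 5 hr by -0.77 ± 0.38 (adjusted p = 0.105). On array 7 Bcl3 exceeded the unstimulated mean by 0.91 and on array 8 by 1.62. With arrays 5, 6 and 8 left out, the 90/5 2 hr difference was 0.91 ± 0.33 (adjusted p = 0.104), and over all alternatives its adjusted p ran from 0.0041 to 0.416. It was lost without array 1, 2, 3, 4 or 8 and without unstimulated replicate 1, 2 or 3, any 18/1 2 hr sample, the Cy3 sample of array 5 or 8, the Cy5 sample of array 8 or 90/5 5 hr replicate 4, at 0.91 to 1.42. It was also lost in the fit of every probe (adjusted p = 0.0533) and with the filter within a condition (adjusted p = 0.0977). The same held without a filter, with saturated probes left out, on array means and in the methods' t-test after Benjamini-Hochberg. The call after 18/1 for 5 hr was lost under median centring, at 0.41 ± 0.37 (adjusted p = 0.359), without a filter (adjusted p = 0.0856), and without array 1 (adjusted p = 0.135) or array 6 (adjusted p = 0.0617).

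Rela encodes p65, the subunit that carries the transactivation domain of the classical dimer. Its probe (chr19:5648070-5648129) was among the bright ones, at 12.85, 12.91, 13.08 and 12.84 in unstimulated neurons. After 18/1 it read 12.23, 12.66, 12.93 and 12.44 at 2 hr and 13.08, 13.51, 12.78 and 13.11 at 5 hr. After 90/5 it read 12.62, 13.08, 13.19 and 13.42 at 2 hr and 12.02, 12.34, 13.38 and 12.69 at 5 hr. Each stimulated condition overlapped the unstimulated range, and the differences from unstimulated ran from -0.35 ± 0.34 to 0.20 ± 0.34 with adjusted p of 0.661 or more. No comparison of Rela was called. An SE of 0.34 leaves room for changes of the size seen for Relb. The genes most like Rela over the 20 samples were Agap1 (r = 0.94), 2410002I01Rik (0.93) and Opa3 (0.92).

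Relb encodes the subunit that pairs with p52 in the non-canonical branch. The probe that was usable in all samples, A_51_P389751 (chr7:20191722-20191781), read 9.96, 9.68, 9.37 and 9.98 in unstimulated neurons. It read 9.84, 9.66, 9.74 and 9.87 after 18/1 for 2 hr, 9.74, 9.64, 9.97 and 9.93 after 18/1 for 5 hr and 9.87, 9.86, 10.14 and 9.79 after 90/5 for 2 hr. The 90/5 5 hr samples read 10.30, 10.52, 10.89 and 10.48, above all 16 other samples. The difference from unstimulated was 0.80 ± 0.26, with an adjusted p of 0.822 and an unadjusted limma p of 0.00547. From 18/1 5 hr it was 0.73 ± 0.26 (adjusted p = 0.0259). The latter call was lost without array 3, 4, 5 or 10 and without 90/5 5 hr replicate 3 (adjusted p from 0.0506 to 0.189). With slide 2 left out the difference from unstimulated had an adjusted p of 0.0315, and with arrays 5, 6 and 8 left out 0.0182, while over all alternatives it ran from 0.000182 to 1. The 90/5 5 hr samples are alone on slide 3, so slide and condition cannot be told apart here.

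The probes of Relb disagreed on array 5. A_55_P2168736 (chr7:20191773-20191832) overlaps the first probe by a few bases, yet read 12.34 and 12.77 on array 5 where it read 9.77 and 10.33 on array 6 and between 9.12 and 9.63 in unstimulated neurons. On array 5 its signal over background was 165 and 246, and that of the first probe 21.3 and 32.4. Its Cy3 spot on array 5 was marked non-uniform. Over the 20 samples the pair correlated at r = 0.02, and at 0.67 without array 5. Through this probe, which represents Relb where the filter is applied within a condition, 18/1 5 hr was higher than unstimulated by 1.84 ± 0.50 (adjusted p = 0.00773) and the pattern difference at 5 hr turned to -1.10 ± 0.50 (adjusted p = 0.0872). The third probe, A_55_P2168741, lies upstream at chr7:20203058-20203117 and read 8.57 to 9.41 in unstimulated neurons and 7.46 to 7.94 after 18/1 for 5 hr, where 3 of its 4 spots were marked non-uniform. In 90/5 5 hr it read 8.97 to 9.55, which overlaps unstimulated, unlike the first probe.

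**Figure D3:**
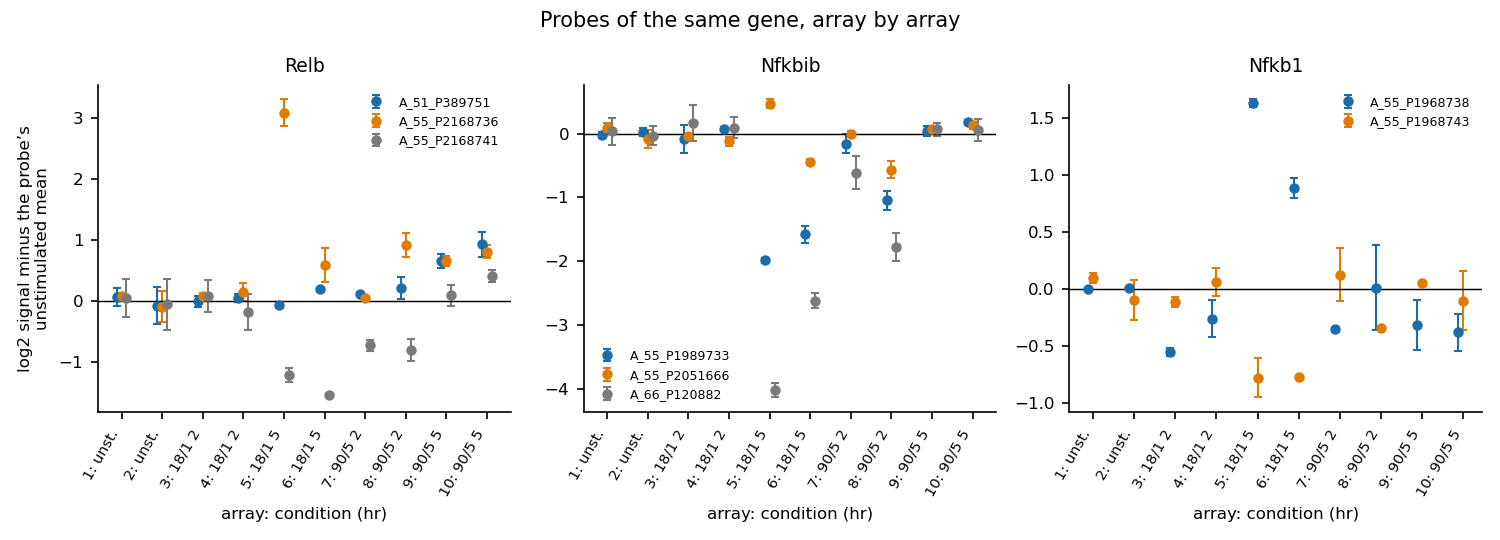
Log2 signal of each probe minus its own unstimulated mean (vertical axis) on the 10 arrays, for the 3 genes with several probes, with points at the mean of both colours and bars from the lower to the higher colour. The bright probes of Nfkbib read low together on arrays 5, 6 and 8, the overlapping probes of Relb part on array 5, and the probes of Nfkb1 move in opposite directions on arrays 5 and 6.

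Nfkb1 and Nfkb2 encode the precursors p105 and p100, which are cut to the DNA-binding subunits p50 and p52 and, uncut, act as inhibitors themselves. They were tested with Tnfaip3 in a fit whose filter asks for usable spots in all 4 samples of at least 1 condition. In it 1 of the 3 genes was called against unstimulated in 18/1 5 hr, where 36.8% of all genes were called. The count was 0 of 3 in 18/1 2 hr (0.0213% of all genes), 90/5 2 hr (5.06%) and 90/5 5 hr (0.149%). Between the patterns 0 of 3 were called at 2 hr and 2 of 3 at 5 hr (3.95% and 38.2% of all genes). Between the times 1 of 3 was called within 18/1 and 1 of 3 within 90/5 (36.3% and 7.94% of all genes), and 1 of 3 between 90/5 2 hr and 18/1 5 hr (8.88% of all genes). The genes in this fit include those that passed only in the condition where they are bright, so these counts are not support for a change. At an unadjusted limma p under 0.05, 0 of 3 passed in 18/1 2 hr (0.598% of all genes), 0 in 90/5 2 hr (20.2%), 1 in 90/5 5 hr (3.23%) and 0 for the patterns at 2 hr (18.3%).

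Nfkb1 was dim in most samples. Its probe A_55_P1968738 (chr3:135247621-135247680) read 7.42, 7.42, 7.44 and 7.42 in unstimulated neurons, and its values after 18/1 for 2 hr, 90/5 for 2 hr and 90/5 for 5 hr lay between 6.83 and 7.81. The 18/1 5 hr samples read 9.02, 9.09, 8.40 and 8.22, above all other samples. The difference from unstimulated was 1.26 ± 0.32 (adjusted p = 0.00536), from 18/1 2 hr 1.67 ± 0.32 (adjusted p = 0.000767) and 90/5 5 hr differed from it by -1.61 ± 0.32 (adjusted p = 0.000837). The call against unstimulated was lost without array 1 (adjusted p = 0.06) or array 2 (adjusted p = 0.0577) and in the methods' t-test after Benjamini-Hochberg (adjusted p = 0.0652). Both array 5 spots were marked non-uniform, and the array 7 and array 8 means differed from unstimulated by -0.35 and 0.01. Nfkb1 entered this fit through 90/5 2 hr alone, where its signal was 2.24 to 5.15 times background. In unstimulated neurons its signal was 1.87 and 1.94 times background in replicates 1 and 4, under the limit of 2. By the filter, neither group of the call against unstimulated was thus usable. The second probe, A_55_P1968743 (chr3:135254550-135254609), went the other way. It read 7.43, 7.33, 7.36 and 7.02 in unstimulated neurons and 6.33, 6.68, 6.49 and 6.53 after 18/1 for 5 hr, none of them well above background, so that unstimulated neurons were at least 1.52-fold higher. The probes of Nfkb1 correlated at r = -0.75 over the 20 samples, and no direction for the gene is given. Within slide 2, Nfkb1 by its first probe differed by -1.43 ± 0.32 in 90/5 2 hr from 18/1 5 hr (adjusted p = 0.0126). In 90/5 2 hr 1 of 4 of these spots was well above background, and in 18/1 2 hr and 90/5 5 hr 3 of 4, so the sizes of differences from these groups are uncertain. The adjusted p within slide 2 was 0.548 in a fit to those 2 conditions alone and 0.06 without array 7, and it ran from 0.000177 to 0.548 over all alternatives.

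Nfkb2 (chr19:46386146-46386285) split by array after 90/5 for 5 hr. It read 7.81 and 8.29 on array 9 and 10.76 and 10.60 on array 10, where its signal over background was 30.9 and 47.4 against 5.52 and 9.91 on array 9. In unstimulated neurons it read 7.70, 7.83, 7.80 and 8.19 and after 18/1 for 2 hr 8.03, 7.86, 7.74 and 8.17. At 5 hr of 18/1 it read 6.76, 6.62, 7.06 and 7.04, and after 90/5 for 2 hr 7.62, 7.60, 7.20 and 6.90, both below all unstimulated samples. The 90/5 5 hr difference from unstimulated was 1.49 ± 0.51 (adjusted p = 0.998), and 0.17 without array 10. The patterns at 5 hr differed by 2.50 ± 0.51 (adjusted p = 0.00103), and by 1.18 without array 10 (adjusted p = 0.0396). In 18/1 5 hr and in 90/5 2 hr 2 of the 4 Nfkb2 spots were well above background, so the size of a difference from these groups is uncertain. Within 90/5, Nfkb2 was higher at 5 hr than at 2 hr by 2.04 ± 0.51 (adjusted p = 0.0185), a call lost without array 10 at 0.72 (adjusted p = 0.476) and without array 8 at 1.75 (adjusted p = 0.189). The Cy5 spot of array 10 was marked non-uniform. The 18/1 5 hr difference from unstimulated was -1.01 ± 0.51 (adjusted p = 0.128).

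Tnfaip3 encodes A20, a ubiquitin-editing enzyme that shuts the pathway off upstream of the IκB kinases, and it is a classical NF-κB target. Its probe (chr10:18720776-18720835) read 7.66, 7.42, 7.71 and 7.29 in unstimulated neurons. Its group means in the stimulated conditions were 7.71 ± 0.26 (SD, n = 4) and 7.74 ± 0.44 after 18/1 for 2 hr and 5 hr, and 7.41 ± 0.25 and 7.68 ± 0.10 after 90/5. All stimulated groups overlapped the unstimulated range, and differences from unstimulated ran from -0.11 to 0.22 with an SE of 0.29. No comparison of Tnfaip3 was called.

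Rel encodes c-Rel, best known from lymphocytes. Its probe (chr11:23641729-23641743) was well above background in 5 of 20 samples, and in no sample of unstimulated neurons, 18/1 2 hr or 90/5 5 hr. In these 3 conditions it read 6.23 to 6.68, with a signal of 0.756 to 1.34 times the background. In 18/1 5 hr samples it read 7.24, 7.45, 6.91 and 7.01, and the lower bound on the means was 1.66-fold above unstimulated. Of these 4 spots, 3 were marked non-uniform. In 90/5 2 hr samples it read 6.61 and 6.54 on array 7 and 7.24 and 7.42 on array 8, and 1 of these 4 was well above background. The mark for non-uniform spots lay on 5 of the 6 Rel spots of arrays 5, 6 and 8 and on none elsewhere. Its part in the higher level was not tested.

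Nfkbiz encodes IκBζ, a nuclear protein of the IκB family that is switched on early in inflammation. Its probe (chr16:55817859-55817918) read 7.03, 7.06, 7.08 and 7.09 in unstimulated neurons and 7.20, 7.36, 7.66 and 7.75 after 18/1 for 2 hr, all 4 above all unstimulated samples with both groups on slide 1. Signal over background was 1.35 to 1.62 in the first group and 1.97 to 3.00 in the second. At 5 hr of 18/1 Nfkbiz read 6.60, 6.52, 7.32 and 7.36 with both array 6 spots non-uniform, after 90/5 for 2 hr 7.04, 7.14, 6.61 and 6.78, and after 90/5 for 5 hr 7.15, 7.14, 7.19 and 7.41. None of the 90/5 2 hr samples was well above background, and 18/1 2 hr was at least 1.25-fold higher than these. Nfkbiz entered no fit, since no condition had 4 spots that were uniform and at least 2 times as bright as background.

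**Figure D4:**
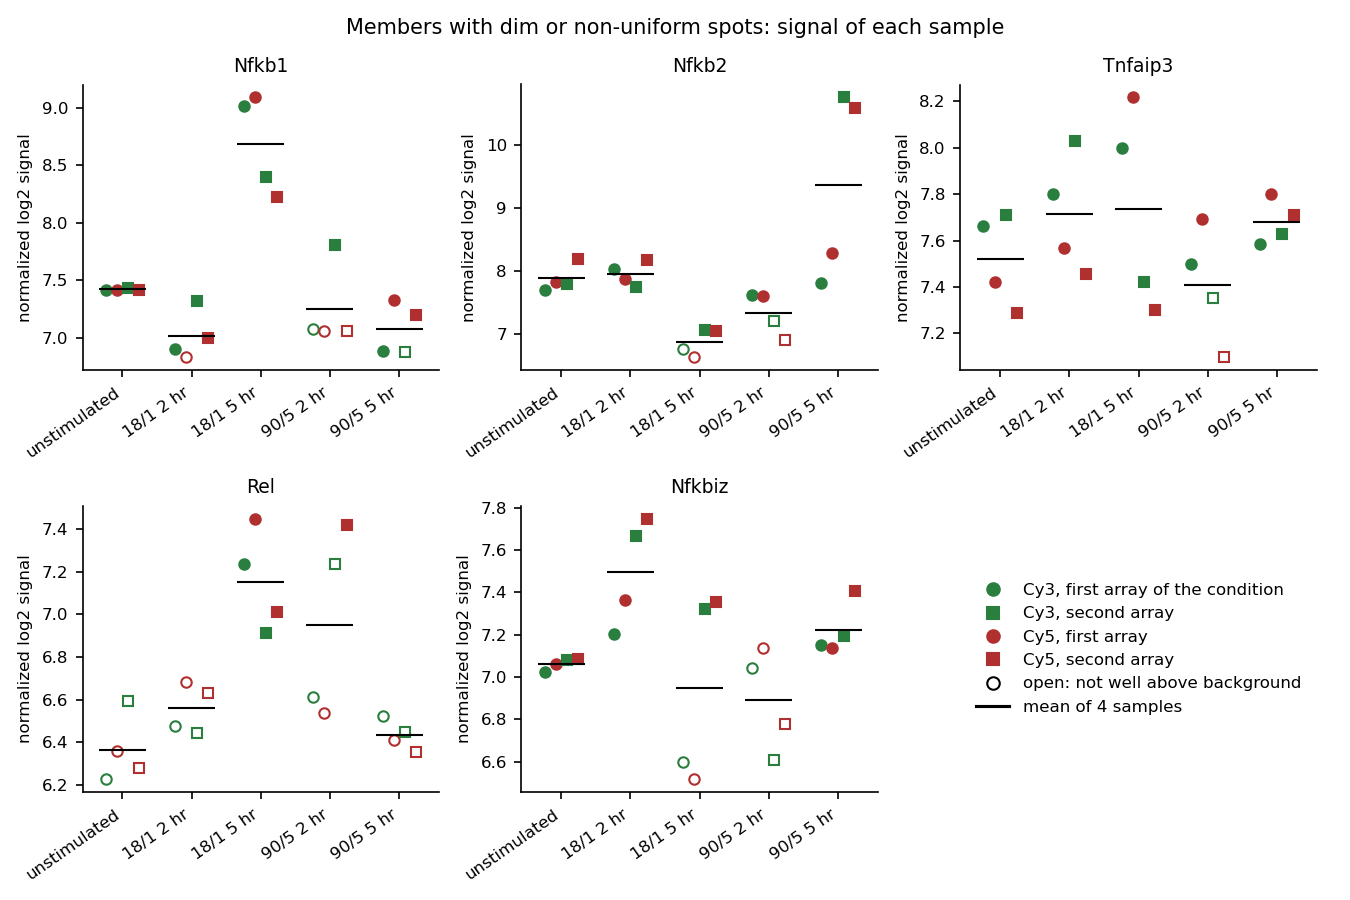
Normalized log2 signal (vertical axis) of each sample by condition for the 5 genes with dim or non-uniform spots, drawn as for the bright genes, with open points for spots that were not well above background. Nfkb1 stands apart at 18/1 5 hr, and the Nfkb2 samples of array 10 stand near 10.6 to 10.8, far from those of array 9.

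Whether the change from 2 hr to 5 hr differed between the patterns was tested as an interaction, 90/5 (5 hr minus 2 hr) minus 18/1 (5 hr minus 2 hr). It was called for Nfkbib at 2.49 ± 0.35 (adjusted p = 1.23e-05) and for Bcl3 at -1.81 ± 0.54 (adjusted p = 0.00945), 2 of 5 genes, where 44.8% of all genes were called. Under median centring the Bcl3 value was -0.94 (adjusted p = 0.135). For Rela it was -1.02 ± 0.48 (adjusted p = 0.0904), for Relb 0.59 ± 0.37 (adjusted p = 0.196) and for Nfkbia 0.57 ± 0.44 (adjusted p = 0.305). In the fit with the filter within a condition it was called for Nfkb1 at -1.85 ± 0.45 (adjusted p = 0.00377) and Nfkb2 at 3.12 ± 0.72 (adjusted p = 0.00251), 2 of 3 genes, where 38.4% of all genes were called. The Nfkb2 value was 1.80 without array 10 (adjusted p = 0.014) and 4.44 without array 9 (adjusted p = 6.37e-06). Tnfaip3 stood at 0.25 ± 0.41 (adjusted p = 0.662). All 3 slides enter this contrast, and the share of higher calls over all genes was 63.0%, or 83.2% with median centring, which moved the median of all genes from 0.30 to 0.93.

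The IκB kinases and the other IκB proteins, which sit next to these genes in the pathway, showed no call against unstimulated outside 18/1 5 hr. Of 12 listed genes 9 were tested. In 18/1 5 hr 0 rose and 3 fell, where 44.4% of all genes were called, with a median of -0.33 against -0.23 for all genes. They were Nkrf, a repressor of NF-κB promoters, at -1.39 (adjusted p = 0.00585), Tbk1, an IKK-related kinase, at -1.33 (adjusted p = 0.0328), and Nfkbil1, an IκB-like protein, at -0.87 (adjusted p = 0.0191). With the filter within a condition 1 of 11 rose and 2 fell (36.8% of all genes called), with a median of -0.16. The gene that rose was Nfkbid, the gene of the nuclear IκB protein IκBNS, at 1.84 ± 0.32 (adjusted p = 0.000313), named after its value was seen. Its mean was 8.43 in unstimulated neurons and 9.10, 10.27, 9.32 and 9.35 in 18/1 2 hr, 18/1 5 hr, 90/5 2 hr and 90/5 5 hr. The differences of Nfkbid outside 18/1 5 hr were not called. Between the patterns at 5 hr 4 of 9 were higher after 90/5 and 0 lower, where 45.4% of all genes were called. With the filter within a condition 11 were tested, of which 3 were higher and 1 lower (38.2% of all genes). Among them was Nfkbie, the gene of IκBε, which the study itself had picked from these samples for RT-PCR. Its mean was 9.06 ± 0.29 (SD, n = 4) in unstimulated neurons, 8.30 ± 0.67 after 18/1 for 5 hr and 9.96 ± 0.20 after 90/5 for 5 hr, and the patterns differed by 1.65 (adjusted p = 0.000288). Its difference from unstimulated after 90/5 for 5 hr was 0.89 and was not called.

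Of 36 receptors, adaptors and ubiquitin enzymes of the pathway, 20 were tested. In 18/1 5 hr 4 rose and 7 fell (44.4% of all genes called), with a median of -0.33. The balance turned with the filter within a condition, where 31 were tested, 8 rose and 3 fell (36.8% of all genes called), with a median of -0.07. This filter also admits genes usable only in the condition where they are bright, so the turn is not support for a rise. That limit holds for every list counted with this filter. In this fit the largest rises were those of Traf1 at 2.54 (adjusted p = 0.000268), Cd40 at 1.93 (adjusted p = 0.00456) and Fadd at 1.41 (adjusted p = 0.000168), named after their values were seen. The 18/1 5 hr samples spread from 8.46 to 11.11 for Traf1 and from 7.90 to 10.59 for Cd40, against 8.82 to 9.46 for Fadd. Among the 20 genes with usable spots in every sample the largest differences were those of Tab3 at -1.31 (adjusted p = 0.0122), Traf6 at -1.25 (adjusted p = 0.000218), an adaptor of interleukin 1 and Toll-like receptors, and Tnfrsf21 at -1.22 (adjusted p = 0.0363). After 90/5 for 2 hr 0 rose and 1 fell (6.97% of all genes called), Tab1 at -0.85 (adjusted p = 0.0355), and with the filter within a condition 0 of 31 were called. After 18/1 for 2 hr and 90/5 for 5 hr 0 of 20 were called (0.0193% and 0.0676% of all genes), with medians of -0.11 and 0.02.

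Among the ligands of the pathway, Tnfsf12, the cytokine TWEAK, fell by 2.04 (adjusted p = 1.19e-05) in 18/1 5 hr and by 1.02 (adjusted p = 0.0252) in 90/5 2 hr. Lta, the cytokine lymphotoxin alpha, fell by 1.09 (adjusted p = 0.000721) in 18/1 5 hr.

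Of 33 known NF-κB target genes 11 were tested. In 18/1 2 hr 0 were called (0.0193% of all genes), in 18/1 5 hr 4 rose and 2 fell (44.4%), in 90/5 2 hr 1 rose and 1 fell (6.97%) and in 90/5 5 hr 1 rose (0.0676%), with medians of 0.11, 0.43, -0.000771 and 0.11. With the filter within a condition 27 were tested, and in 18/1 5 hr 6 rose and 4 fell (36.8% of all genes), with a median of 0.13. Gadd45b, a stress-induced and activity-induced gene, rose by 1.45 (adjusted p = 0.000869) after 90/5 for 2 hr and by 1.84 (adjusted p = 0.000668) after 90/5 for 5 hr. Its mean was 8.52 ± 0.11 (SD, n = 4) in unstimulated neurons and 9.40 ± 0.19, 9.57 ± 0.29, 9.97 ± 0.20 and 10.37 ± 0.30 in 18/1 2 hr, 18/1 5 hr, 90/5 2 hr and 90/5 5 hr. Irf1, an interferon-response factor, rose by 1.52 (adjusted p = 0.000537) after 18/1 for 5 hr, where Nos2 fell by 1.20 (adjusted p = 0.000647) and Myc by 1.14 (adjusted p = 0.0152). Nos2 fell by 1.02 (adjusted p = 0.0145) after 90/5 for 2 hr.

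Pim1 and Bcor, the other NF-κB-linked genes that the study chose from these samples for RT-PCR, were measured in the fit with the filter within a condition, and they are no independent evidence. Bcor, a corepressor, differed from unstimulated by 1.72 (adjusted p = 0.00449) after 18/1 for 5 hr and by 0.94 (adjusted p = 1) after 90/5 for 5 hr. Pim1, a survival kinase, differed by 1.16 (adjusted p = 0.0726) and 0.38, and without array 5 the first of these was -0.14.

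**Figure D5:**
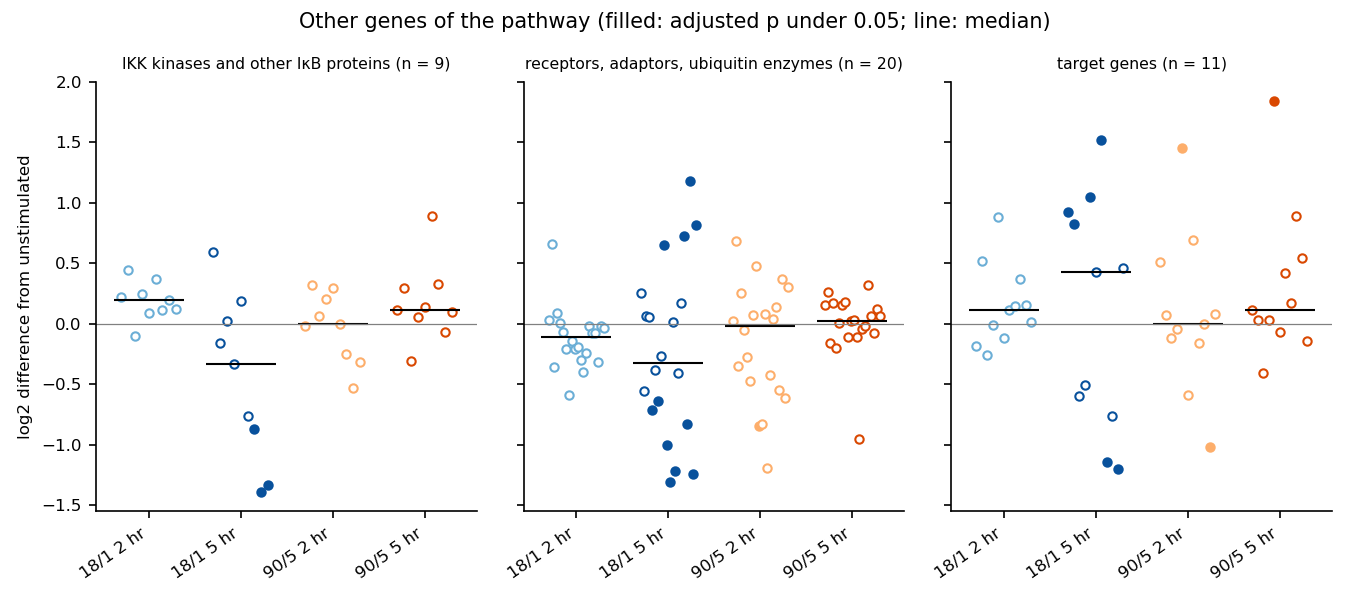
Log2 difference from unstimulated neurons (vertical axis) of the tested genes of 3 pathway lists in the 4 stimulated conditions, with filled points for an adjusted p under 0.05 and a line at the median. Most filled points belong to 18/1 5 hr, where 44.4% of all genes were called.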

How the data were processed

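Total RNA of 20 samples was hybridized to 10 arrays in 2 colours. The authors deposited spot mean and local background median intensity for each colour on a linear scale, extracted with Agilent Feature Extraction 10.7.1.1 (slide 1) or 10.7.3.1 (slides 2 and 3). Per colour, 35 further kinds of column (36 on slide 2) were not used. The deposited marks for spots that were non-uniform, saturated or well above background were kept. Background was corrected with normexp (offset 50), colours were normalized within arrays by loess without control spots, and arrays were scaled with Aquantile, with limma 3.58.1 under R 4.3.3. Figures were drawn in Python 3.11.15 with matplotlib 3.10.9 and pandas 2.3.3.

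A spot was usable if at least 2 times as bright as its background and not marked as non-uniform, in all 20 samples (10355 genes, 1 probe each, that with the highest mean). A further fit asked for this in all 4 samples of a condition (18744 genes) and another kept every probe (12137 probes). The limma model held condition means and colour, with array as random block and Benjamini-Hochberg adjustment at 0.05 within each of 9 comparisons, and was tested on simulated data. For a probe not well above background in a group, a lower bound was computed from the group means. Readings below the lowest signal among probes well above background in the same sample were first raised to that signal. Readings above it were kept, and the bound does not allow for spread or for spots marked non-uniform.

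The genes, the pathway lists and the tests were chosen with earlier results of these data known. Named genes were every probe of the 10 genes, the 3 called genes of each list with the largest difference from unstimulated neurons per condition, the genes that the study measured by RT-PCR, 3 activity genes as a check, and the 3 genes most correlated with Nfkbia and with Rela. Of the pathway genes, 1 is not reported here. Deviations of same-numbered samples from their condition means correlated at 0.411 to 0.716 in all 4 pairs of unstimulated and 18/1 2 hr (0.173 to 0.519 with colour removed), so the numbers were taken to pair these conditions and the blocked value (no colour term) is given there. Alternatives covered background, normalization, filter, block, colour, samples used, the methods' t-test and each sample or array left out. The labels do not settle the colour of each replicate in 18/1 5 hr and 90/5 2 hr, so these samples are named by array and colour. Probe coordinates are those of the array annotation (mm9), which differs from the earlier annotation in the name of 8333 of 44397 spots. Of the names, 86.2% match RefSeq. The depth of an array is its signal over background, with median spots 2.27 to 10.4 times as bright, and the number of arrays limits precision.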

Additional observations from a re-analysis of the deposited data

Results flagged for a closer look

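The change from 2 hr to 5 hr differed between the patterns by a limma test of the difference itself for Bcl3 (-1.811 on the log2 scale), Nfkbib (2.491), Nfkb1 (-1.847) and Nfkb2 (3.119). By the same test 44.8% of all genes were called in the fit over 20 samples, which holds Bcl3 and Nfkbib. With the filter within a condition, used for Nfkb1 and Nfkb2, 38.4% were called. The Bcl3 call was lost under median centring, at -0.94 (limma adjusted p = 0.135). In 18/1 Bcl3 was higher and Nfkbib lower at 5 hr than at 2 hr. In 90/5 neither difference between the times was called by the chosen probes, but the second bright Nfkbib probe was called there at 1.25. For Nfkb1 the probes of the gene disagree, and for Nfkb2 array 10 alone holds the high values. The test spans all 3 slides, so slide and condition cannot be told apart.

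Of 50 groups of 4 samples checked for a single sample far from the rest, 2 were marked, and chance marks about 1 in 20. Both were of Nfkb1. In 90/5 2 hr the Cy3 sample of array 8 was at 7.807 and the nearest other sample at 7.081. In unstimulated neurons replicate 3 was at 7.436 and the nearest at 7.419, a gap that is small in itself, since the other samples are almost equal.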

How the results depend on the processing

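Each count below is of the 5 genes measured in all samples, with the reported count in brackets, and the cause of a change was not tested. For 18/1 2 hr against unstimulated (0) the count was 1 with the scanner software's processed signals, without the array block, with only the conditions compared, with slide 2 left out, in the methods' t-test, with a replicate block, with that block in these conditions alone and with arrays 5, 6 and 8 left out, 2 with array weights, and 0 to 0 with single samples or arrays left out. For 18/1 5 hr (2) it was 1 under median centring, 3 with the filter within a condition, where Relb is called through another probe, and 1 to 2 with single ones left out. For 90/5 2 hr (2) it was 1 without background subtraction, under quantile normalization, under median centring, without the colour term, with only the conditions compared and without arrays 5, 6 and 8. It was 0 with the filter within a condition, without a filter, with saturated probes out, on array means and in the t-test after Benjamini-Hochberg, and 0 to 3 with single ones left out. For 90/5 5 hr (0) it was 1 without the array block, 2 with slide 2 out, in the t-test, with a replicate block and without arrays 5, 6 and 8, 3 with array weights, and 0 to 0 with single ones left out. For the patterns at 2 hr (0) it was 1 with every probe, 2 without the array block, 1 in the t-test and 0 to 2 with single ones left out. At 5 hr (2) it was 1 with the filter within a condition, without a filter, with only the conditions compared and in the t-test after Benjamini-Hochberg, 4 with array weights and 1 to 3 with single ones left out. Between the times within 18/1 the Bcl3 call was lost under median centring, with saturated probes out, on array means and in the t-test after Benjamini-Hochberg, as given above. The count there (3) was 2 with the filter within a condition, where Nfkbia and Bcl3 are lost and Relb is called through another probe, 2 without a filter, and 1 to 3 with single ones left out. Within 90/5 (0) it was 1 with every probe, with array weights and without arrays 5, 6 and 8, 3 without the array block, 2 in the t-test and 0 to 2 with single ones left out. For 90/5 2 hr against 18/1 5 hr (1) it was 3 under median centring, 2 without the array block and in the t-test, 0 on array means, with only the conditions compared and in the t-test after Benjamini-Hochberg, and 0 to 1 with single ones left out.

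For Nfkb1, Nfkb2 and Tnfaip3 the counts of 3 were, with only the conditions compared, 2 for 18/1 5 hr against 2 hr (1), 2 for 18/1 5 hr (1), and 0 for 90/5 2 hr against 18/1 5 hr (1) and for the times within 90/5 (1). In the t-test they were 2, 2, 1 for 90/5 2 hr (0), 0 within 90/5, 1 for the patterns at 2 hr (0) and 1 at 5 hr (2). After Benjamini-Hochberg they were 2 for 18/1 5 hr against 2 hr and 0 for 90/5 2 hr against 18/1 5 hr, within 90/5 and for the patterns at 5 hr. On array means and with array weights the counts for 90/5 2 hr against 18/1 5 hr and within 90/5 were 0, as was that within 90/5 without a filter and without arrays 5, 6 and 8. With single samples or arrays left out the ranges were 1 to 2 for 18/1 5 hr against 2 hr, 0 to 2 for 18/1 5 hr and for 90/5 2 hr against 18/1 5 hr, 0 to 1 within 90/5 and for 90/5 5 hr (0), and 2 to 2 for the patterns at 5 hr.

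The pattern difference of Relb at 5 hr turned to -1.10 with the filter within a condition and without a filter, where another probe stands for the gene, and that of Pim1 in 18/1 5 hr to -0.14 without array 5 (-0.14 to 2.47 with single ones left out). Of the 20 called differences of the 10 genes, 19 kept their direction in every alternative run and 7 kept the call. All 12 uncalled differences with an unadjusted p under 0.05 kept their direction. Of the 48 others 26 changed sign in at least 1 alternative and 16 were called in at least 1. For 90/5 5 hr the replicate numbers were taken not to pair the samples, since 5 of its 8 same-numbered pairs correlated over 0.1 (-0.0531 to 0.649), and 3 of 8 with colour removed (-0.543 to 0.588). Leaving out arrays 5, 6 and 8 and the block in only unstimulated and 18/1 2 hr were chosen after seeing the data. The slide as a fixed block was not run, since slides are combinations of conditions, and processed signals were compared only for the conditions of slides 1 and 3. Usable spots were not redefined when samples were left out. Dim or non-uniform spots kept Rel and Nfkbiz out of every test.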
